A study of Mus musculus with 38 samples.

Results

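Layer 6 corticothalamic neurons were taken from single-nuclei RNA-seq of the cerebral cortex of 4 mice aged 3 months from an Emx1-Cre; Trim28-flox cross. They were picked nucleus by nucleus from counts of unique molecular identifiers (UMIs, each standing for 1 captured RNA molecule). A nucleus was counted as excitatory when the UMIs of Slc17a7 and Neurod6 together reached 3 and exceeded those of Gad1 and Gad2, and as layer 6 when, in addition, Foxp2, Syt6 and Cpa6 together reached 6, Rorb was below 5 and the sum of Chst8, Trpc7 and Npr3 was below 3. Of 14296 nuclei in all, 5058 were excitatory by this rule and 351 were layer 6 nuclei. The 2 Trim28-KO animals, numbered 60 and 73, were Emx1-Cre heterozygous with both copies of Trim28 floxed (Emx1-Cre +/-; Trim28-fl +/+). Per the study's methods, the 2 control animals, numbered 64 and 65, were littermates that also carried the Cre, with 1 of the copies floxed (Emx1-Cre +/-; Trim28-fl +/-). By this description all 4 animals carried Cre and the controls were heterozygous for the excision rather than wild type. A figure legend of the paper instead calls the cortex controls Cre-negative littermates. The sires of the cross also carried a gtRosa allele, and about 8500 nuclei were sorted per animal. Bulk RNA-seq of the cortex of 3 Trim28-KO and 3 control animals, which included these 4, is set beside the nuclei. Cas9-GFP neural progenitor cultures, in which guide RNAs disrupted Trim28 and guides against lacZ served as control, are used in 1 comparison.

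Corticothalamic neurons are glutamatergic projection neurons of the deepest cortical layer whose axons run to the thalamus, where they modulate the relay of sensory information back to the cortex. In mice they are marked by the transcription factor Foxp2, the synaptotagmin Syt6 and the heparan sulfate sulfotransferase Hs3st4. Emx1-Cre acts in the cortical progenitors that give rise to excitatory neurons and glia of the cortex but not in those of the inhibitory interneurons. Trim28 is a co-repressor that zinc-finger proteins recruit to endogenous retroviruses (ERVs) and other transposable elements, where it sets up repressive chromatin.

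The layer 6 nuclei numbered 74 in Trim28-KO animal 60, 36 in Trim28-KO animal 73, 132 in control animal 64 and 109 in control animal 65. Their median depth was 10807, 10032, 11646 and 11097 UMIs per nucleus, with a median of 3684, 3592, 3780 and 3666 genes detected, in the same order. Summed over each animal's layer 6 nuclei the counts came to 825316, 402092, 1611594 and 1344270 UMIs. The 2 Trim28-KO animals, and animal 73 in particular, thus gave the shallower profiles, and 3 UMIs corresponded to 3.57, 7.33, 1.89 and 2.27 CPM (the UMIs of a gene scaled to 1000000 UMIs of the class in that animal, with the total corrected by the trimmed mean of M-values, TMM). A pair of libraries shared between 0 and 20 cell barcodes, and 1 of the barcodes shared belonged to a layer 6 nucleus.

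Whether the nuclei gathered by the rule had the identity of corticothalamic neurons was examined with genes that the rule did not use. Hs3st4 stood at 2832 and 2630 CPM in the layer 6 nuclei of Trim28-KO animals 60 and 73, and at 3313 and 3110 CPM in those of control animals 64 and 65. In the other excitatory nuclei of the same animals it stood at 234.8, 209.3, 397.8 and 472.5 CPM, well below the layer 6 level in every animal. With each nucleus thinned to 4000 UMIs, Hs3st4 was detected in 98.6%, 97.2%, 97.7% and 100% of the layer 6 nuclei (in 100%, 97.2%, 97.7% and 100% without thinning). In inhibitory nuclei, for which it is not a marker, the thinned share was 20.2%, 18.8%, 18.6% and 20.6%, which was taken as the background. In the other excitatory nuclei it was between 34.1% and 45.6%. Hs3st4 therefore separated the class from the background in all 4 libraries.

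Among the 15 genes with the highest ratio of layer 6 to other excitatory nuclei, 12 were not part of the rule. Because the classes were cut on expression in the same nuclei, these ratios are a description without a test. After the rule genes Syt6, Foxp2 and Cpa6, the highest mean log2 ratio of CPM + 1 over the 4 animals was that of the cell-cycle regulator Rprm, at 3.78 ± 0.54 (SD, n = 4). The collagen gene Col12a1 followed at 3.43 ± 0.26, the semaphorin Sema5a at 3.43 ± 0.44, Thsd7b at 3.35 ± 0.67 and Hs3st4 at 3.25 ± 0.44. The Groucho-family co-repressor Tle4, a further corticothalamic marker, stood at 2.86 ± 0.30, with 550.1, 523.1, 599.7 and 505.7 CPM in animals 60, 73, 64 and 65. At the other end, the upper-layer homeobox gene Cux2 had a ratio of -3.87 ± 0.43, the netrin receptor Unc5d one of -4.16 ± 0.77, the LIM homeobox gene Lhx2 one of -3.92 ± 0.64 and Thsd7a one of -4.22 ± 0.63. The profile was thus that of a deep-layer class low in upper-layer genes, in both genotypes.

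**Figure D1:**
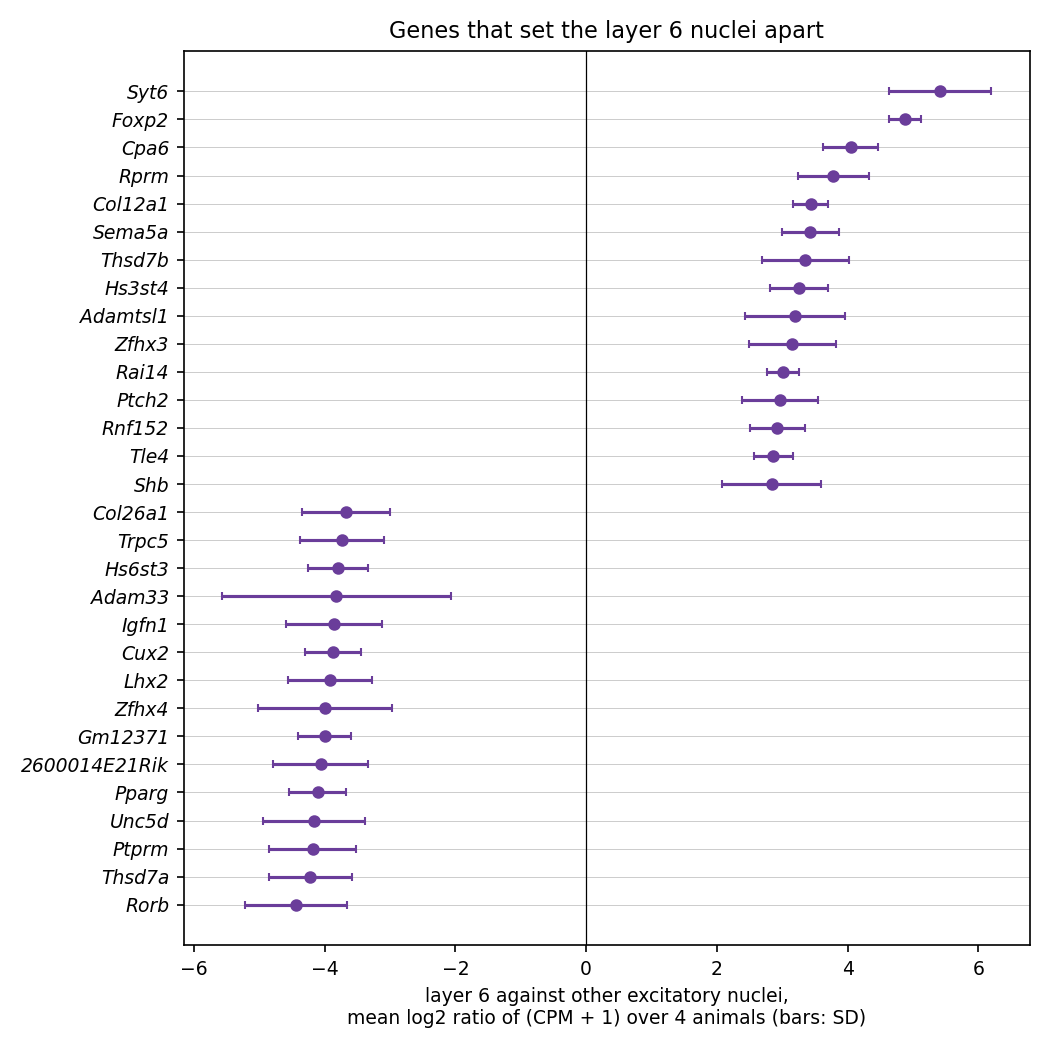
The mean log2 ratio of layer 6 to other excitatory nuclei (CPM + 1) on the horizontal axis, for the 15 highest and the 15 lowest ratios among genes at 20 CPM or more in the higher class; points are means of 4 animals and bars their SD. Syt6, Foxp2, Cpa6 and Rorb were part of the rule, while Rprm at 3.78, Hs3st4 at 3.25 and Cux2 at -3.87 were not.

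The edge of the rule was examined once by the level of Hs3st4. Nuclei with a sum of 6 or 7 UMIs of Foxp2, Syt6 and Cpa6, just inside the class, held 3241, 2127, 2983 and 2978 CPM of Hs3st4, without the TMM correction, in animals 60, 73, 64 and 65. Nuclei with a sum of 4 or 5, just outside it, held 2125, 2015, 2608 and 2320, whereas those with a sum of 0 held 91.9, 80.6, 205.7 and 174.2. The nuclei just outside were 32, 13, 17 and 23 in number and resembled the class more than they resembled the nuclei without any of the 3 transcripts.

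Layer 6 nuclei made up a smaller share of the excitatory nuclei in both Trim28-KO animals than in both controls. They were 4.95% of 1496 excitatory nuclei in Trim28-KO animal 60 (exact binomial 95% interval 3.90 to 6.17%) and 2.31% of 1556 in animal 73 (1.63 to 3.19%). In control animal 64 they were 13.0% of 1013 (11.02 to 15.3%) and in control animal 65 10.98% of 993 (9.10 to 13.1%). The groups did not overlap, and no interval of a Trim28-KO animal reached that of a control, although these intervals cover counting error alone. The mean was 3.63% ± 1.86 (SD, n = 2) in Trim28-KO and 12.004% ± 1.45 (SD, n = 2) in control animals, a 3.31-fold difference. With 2 animals against 2 the exact two-sided permutation test gave p = 0.333, the smallest value this design allows. As a share of all nuclei, layer 6 nuclei were 1.95% and 0.930% against 3.78% and 3.48%, 2.52-fold apart. The excitatory nuclei were 1496 of 3799 and 1556 of 3871 nuclei in Trim28-KO animals, and 1013 of 3496 and 993 of 3130 in controls.

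The size of this difference depended on the gate. With a sum of at least 10 UMIs in place of 6, the shares were 2.47% and 1.29% in Trim28-KO against 8.98% and 7.35% in control animals, 4.35-fold apart. A gate on Hs3st4 at 3 UMIs or more in place of the sum, with the other limits kept, gave 18.6% and 14.1% against 28.2% and 26.1%, 1.66-fold apart. It took 278, 220, 286 and 259 nuclei in animals 60, 73, 64 and 65, of which the rule also took 73, 34, 129 and 109. Most nuclei of the Hs3st4 gate thus lay outside the rule in each animal. For comparison, nuclei with high Rorb, a gene of the middle layers, were 22.0% and 25.1% of the excitatory nuclei against 28.3% and 29.9%, and those with Chst8, Trpc7 or Npr3, genes of thick-tufted layer 5 neurons, were 5.61% and 4.18% against 2.47% and 4.33%. The groups overlapped in the last case. They also overlapped when each nucleus was thinned to 2000 UMIs and the sum was lowered to at least 3, 2 changes that were not separated. The shares were then 3.41% of 88 and 2.41% of 83 excitatory nuclei in Trim28-KO against 2.78% of 36 and 6.67% of 45 in control animals. They lay 1.62-fold apart on 3, 2, 1 and 3 layer 6 nuclei. Thinned to 5000 UMIs with a sum of at least 3, a setting chosen after seeing the data, the shares were 5.95% and 2.94% against 13.03% and 10.8%, 2.68-fold apart. Without thinning, the gate took no account of depth. The excitatory nuclei had a median of 11807 and 11227 UMIs in Trim28-KO against 12934 and 12596 in control animals. The part of depth in the share was examined only by the thinning above. Since the gate counts transcripts of 3 genes, fewer layer 6 neurons among the sorted nuclei and fewer of these transcripts per neuron cannot be told apart from the share.

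**Figure D2:**
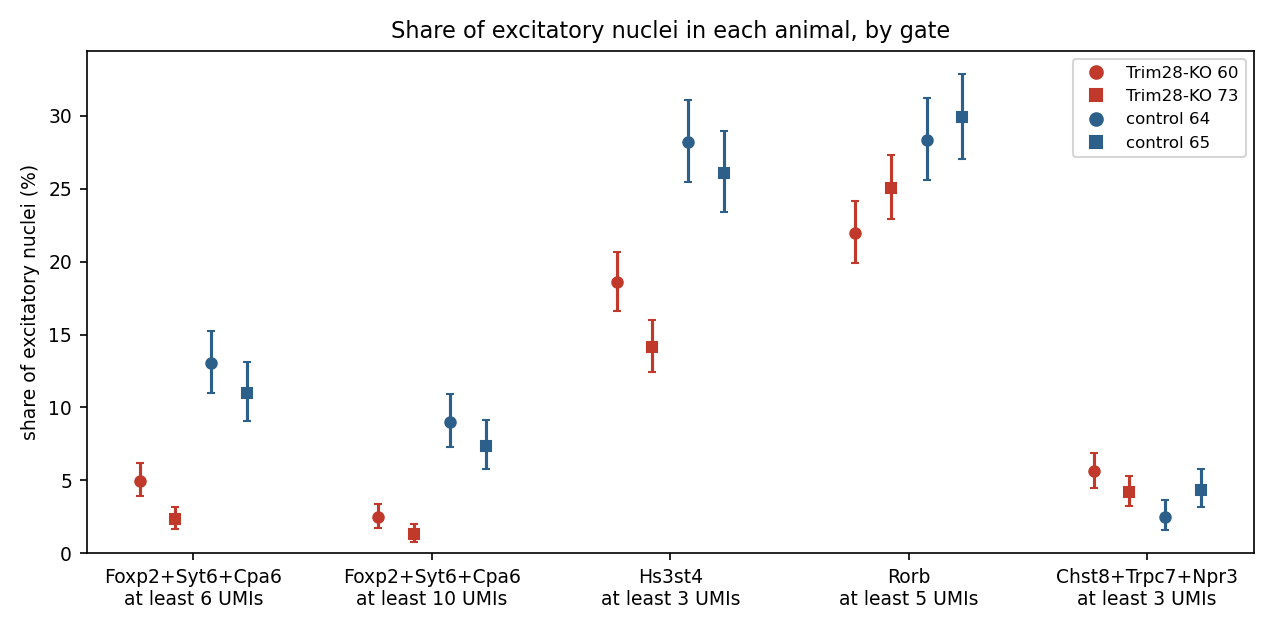
The share of excitatory nuclei (%) that passed each gate in each animal, with exact binomial 95% intervals as bars; circles and squares are animals 60 and 73 (Trim28-KO, red) and 64 and 65 (control, blue). The layer 6 share was 4.95% and 2.31% in Trim28-KO and 13.0% and 10.98% in control animals, and the ratio between the groups was smaller for the Hs3st4 gate.

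The marker genes themselves gave a second view of the same nuclei. Summed over all excitatory nuclei, Foxp2 stood at 52.6 and 26.5 CPM in Trim28-KO animals 60 and 73 and at 99.6 and 95.3 CPM in control animals 64 and 65. The level of Hs3st4 was 355 and 264 CPM against 721 and 707 CPM. Both genes were lower in both Trim28-KO animals, with log2 ratios of the group means of -1.30 and -1.21. The neurotensin receptor Ntsr1, which marks corticothalamic cells in widely used Cre lines, had a ratio of -1.35 and Thsd7b one of -1.78, whereas Fezf2, a regulator of subcortical projection neurons, had one of 0.09. Weaker ratios were those of Bcl11b at -0.19, Crym at -0.20, Tbr1 at -0.25, Sox5 at -0.30, Nfib at -0.43 and Garnl3 at -0.44. All these ratios come from the nuclei that also gave the shares and are not independent of them.

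In bulk cortex no corticothalamic marker passed the test. Foxp2 stood at 22.3, 21.2 and 25.5 CPM in the 3 Trim28-KO cortices and at 17.7, 23.2 and 20.6 CPM in the 3 controls, with overlapping groups and a log2 fold change of 0.17 ± 0.12 (SE; adjusted p = 0.859, edgeR quasi-likelihood test). Hs3st4 had a log2 fold change of -0.11 ± 0.15 (adjusted p = 0.975) and Syt6 one of -0.20 ± 0.17 (adjusted p = 0.904). Of 15 corticothalamic markers outside the rule, Hs3st4 among them, none was called in either direction in bulk, where 1.37% of 16271 genes were called, and their log2 fold changes ran from -0.67 to 0.28 around a median of 0.08, beside a median of 0.01 over all genes. In bulk tissue fewer cells of a type and less RNA per cell cannot be told apart. Bulk libraries and nuclei came from overlapping animals, so that the values are set side by side without a test.

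**Figure D3:**
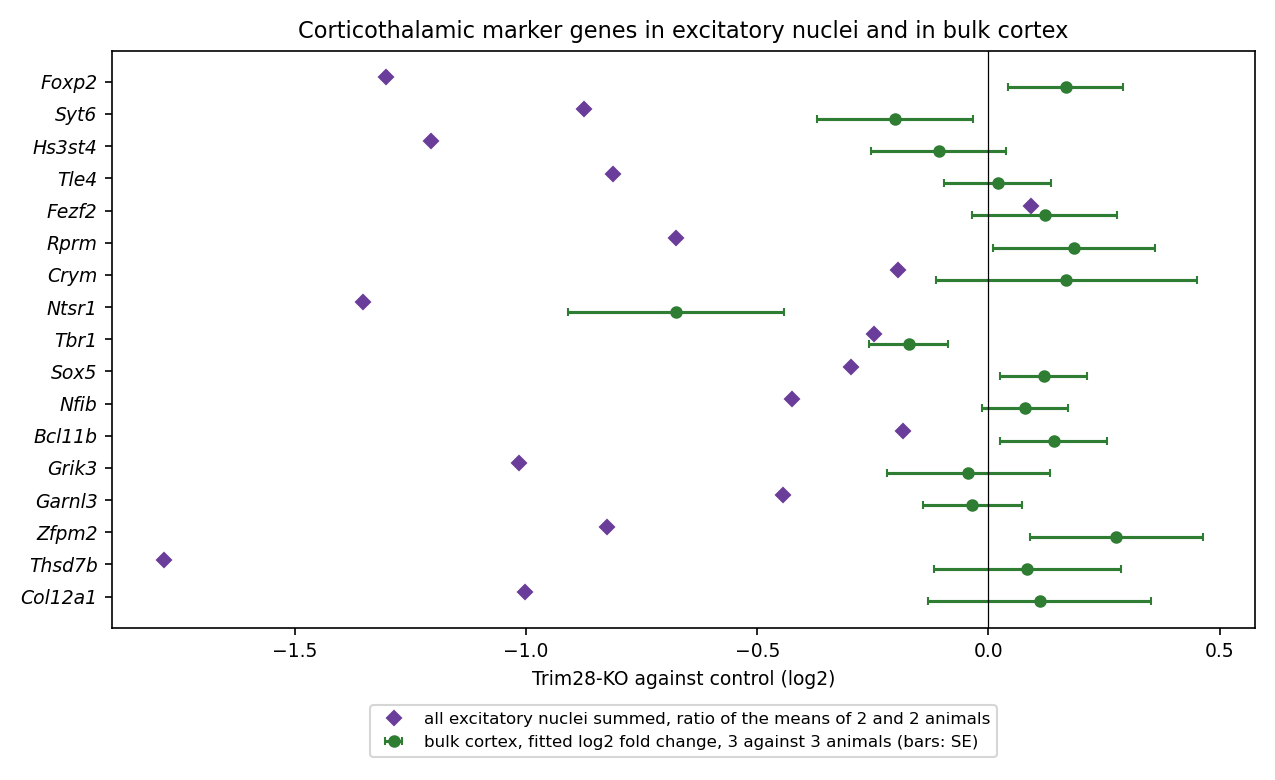
The log2 ratio of Trim28-KO to control for corticothalamic marker genes: diamonds are ratios of the mean CPM over all excitatory nuclei (2 against 2 animals) and circles the fitted log2 fold change in bulk cortex (3 against 3 animals, bars SE). Foxp2 at -1.30 and Hs3st4 at -1.21 in excitatory nuclei stand beside 0.17 and -0.11 in bulk cortex.

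Within the layer 6 nuclei the identity genes that the rule did not use did not pass the test between genotypes. Hs3st4 had a log2 fold change of -0.23 ± 0.13 (adjusted p = 0.491, edgeR). Foxp2, whose UMIs the rule counted, had 637 and 565 CPM in Trim28-KO animals 60 and 73 and 710 and 766 CPM in control animals 64 and 65, given as a description only. None of the 15 corticothalamic markers outside the rule, Hs3st4 among them, was called, and their median log2 fold change was -0.11, beside -0.004 over all 9497 genes tested. Their summed level was 8236 and 8096 CPM in Trim28-KO against 8852 and 9368 CPM in control animals. In both genotypes Hs3st4 was the most abundant of them.

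Trim28 itself was sparse. The layer 6 nuclei held 7 and 1 Trim28 UMIs in Trim28-KO animals 60 and 73 and 20 and 13 in control animals 64 and 65, or 8.34 and 2.44 CPM against 12.6 and 9.84 CPM. Both Trim28-KO values lay below both controls, and the log2 fold change of -0.83 ± 0.59 did not pass the test (adjusted p = 0.626, edgeR). A transcript tagged near its end can be counted without the deleted part, whose position is not given in the sources used here, so that this level says little about the excision. In bulk cortex Trim28 fell, with 6.07, 8.52 and 8.86 CPM in Trim28-KO against 20.8, 18.95 and 21.4 CPM in control animals (log2 fold change -1.39 ± 0.15, adjusted p = 0.000378, edgeR).

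Between genotypes, 73 of the 9497 genes tested in layer 6 nuclei (0.769%) passed an adjusted p of 0.05 in edgeR's quasi-likelihood test on UMIs summed per animal. Of these, 40 rose in Trim28-KO nuclei (0.421% of the genes tested) and 33 fell (0.347%). In each of the 73 genes both Trim28-KO animals lay on the same side of both controls, an arrangement that 21.6% of all genes tested showed with Trim28-KO above and 22.1% with Trim28-KO below. The same test called 9.05% of 15312 genes in the other excitatory nuclei (4.8% higher and 4.25% lower in Trim28-KO), 9.71% of 12500 in the Rorb-high nuclei (4.73% and 4.98%), 1.09% of 9263 in the nuclei with Chst8, Trpc7 or Npr3 (0.497% and 0.594%), and 0 of 12308 in the inhibitory nuclei, where 1735 genes had an unadjusted p under 0.05 and DESeq2 called 2 genes. The number of nuclei per class ran from 217 in the Chst8, Trpc7 or Npr3 class to 4707 in the other excitatory nuclei, so that these shares do not rank the classes by response. Of the 40 raised genes 32 were also called higher in the other excitatory nuclei, and of the 33 lowered genes 25 were called lower. In the Rorb-high nuclei 31 of 40 and 21 of 32 tested were called in the same direction. In the nuclei with Chst8, Trpc7 or Npr3 these were 10 of 37 and 7 of 29. None was called in the opposite direction in any of these classes. The number of layer 6 genes called moved widely with the processing: DESeq2 called 29 of the 73, and 8 remained when the 1, 0, 7 and 6 nuclei of animals 60, 73, 64 and 65 with at least 3 UMIs of layer 6b genes were left out. In the latter fit 72 of the 73 could be tested and all 72 kept their direction, at a median of 0.977 times their log2 fold change. Of the genes named in the following with values, DESeq2 gave no adjusted p for Macc1, Pcdha1, Gm13016, Tcfl5, Car12, Gm42950, Bdnf, Onecut2 and Svil, and it did not call Atp8b1, Sdk1, Ryr3, Unc5c, Sema5b, Sulf1, Kcnab1, Ncam2, Hecw2, Ddit3, Mbp, mt-Co3, mt-Cytb or mt-Co1. Leaving out Trim28-KO animal 60 or 73 or control animal 64 or 65 gave 157, 105, 237 and 274 calls.

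Among the genes that rose were transcripts without an assigned protein function. Gm20711, a noncoding transcript, stood at 326 and 354 CPM in Trim28-KO animals 60 and 73 and at 4.42 and 12.9 CPM in control animals 64 and 65. Both Trim28-KO animals were far above both controls, with a log2 fold change of 5.33 ± 0.31 (adjusted p = 1.77e-08, edgeR), and in bulk cortex the change was 4.51 ± 0.33. In layer 6 it was 4.70 without control animal 64 and 6.23 without control animal 65. Gm13016 stood at 26.2 and 31.8 CPM against 1.89 and 0 CPM (35 UMIs against 3, all of them in control animal 64, a ratio of 28.1 with an exact 95% counting interval of 8.86 to 143; adjusted p = 0.00362, edgeR). 2410018L13Rik was at 60.7 and 63.6 CPM against 8.21 and 17.4 CPM, a log2 fold change of 2.29 ± 0.36 (adjusted p = 0.00681, edgeR). Gm26624, which shares its locus on chromosome 4 with the opposite-strand C230088H06Rik, was at 83.4 and 95.3 CPM against 16.4 and 24.98 CPM (2.10 ± 0.29, adjusted p = 0.003, edgeR). These 4 transcripts were still called after nuclei with layer 6b transcripts had been left out.

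The region at the annotated start of each raised gene was compared with the annotation of transposable elements, to which Trim28 binds through zinc-finger proteins. In a window from 250 bases before to 50 bases after the start, 3 of the 40 raised genes (7.5%) held a copy on their own strand, beside 615 of 9485 genes tested with a position (6.48%). None of the 33 lowered genes held one. Copies on either strand lay in 7 of the 40 windows (17.5%) and in 11.3% of all, so that most raised genes had no annotated element there. The start of Gm20711 lies within an RLTR10C element, a retroviral long terminal repeat, which covers all 300 bases of its window. The windows of the other 2 genes, Gm13016 and Macc1, are printed from the GRCm38 RefSeq genome, 5′ to 3′ on the plus strand, with the bases inside the annotated copy in capitals, to show where the copy lies at the start of a raised gene. That of Gm13016 (chr4:140380380-140380679) has 170 of its 300 bases in a B4A short interspersed element, and that of Macc1 (chr12:119314020-119314319) has 65 bases in an RSINE1 element.
Gm13016: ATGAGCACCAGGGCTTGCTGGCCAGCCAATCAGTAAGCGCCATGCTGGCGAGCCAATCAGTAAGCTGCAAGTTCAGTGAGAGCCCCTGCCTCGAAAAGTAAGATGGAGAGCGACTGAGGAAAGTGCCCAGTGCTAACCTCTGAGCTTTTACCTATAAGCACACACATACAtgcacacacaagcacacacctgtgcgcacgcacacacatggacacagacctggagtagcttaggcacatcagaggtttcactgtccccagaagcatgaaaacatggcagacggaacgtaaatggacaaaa
Macc1: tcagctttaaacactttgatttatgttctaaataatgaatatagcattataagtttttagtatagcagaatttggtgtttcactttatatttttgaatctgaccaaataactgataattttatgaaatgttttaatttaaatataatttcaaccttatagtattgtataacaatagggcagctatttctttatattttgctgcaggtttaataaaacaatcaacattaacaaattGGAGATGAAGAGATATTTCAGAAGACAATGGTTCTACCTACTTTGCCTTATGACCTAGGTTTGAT

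The copy upstream of Gm13016 could also be followed in bulk cortex, where reads were counted per element and 347 of 13997 copies tested rose (2.48%, at an adjusted p of 0.05 and a log2 fold change above 0.5) and 35 fell. The B4A element, 81 bases before the gene, held 126, 114 and 83 reads in the 3 Trim28-KO cortices against 8, 3 and 2 in the 3 controls. The Trim28-KO cortices were all above the controls for this copy, and likewise for an MTE2a element within the gene with 221, 212 and 166 against 13, 7 and 10 reads. Within Gm20711 an MLT2B1 element on the opposite strand held 48, 41 and 51 against 5, 1 and 2 reads. Within 2410018L13Rik, 4 raised copies lay on the strand of the gene or against it, among them a B4A element with 52, 59 and 39 against 7, 2 and 3 reads. Reads from a copy inside a gene can belong to the gene's own transcript. Cultures of neural progenitor cells (NPCs) share no animals with the nuclei and lost Trim28 through Cas9 and guide RNAs, not Cre. Their Trim28-KO libraries were KO845, KO848, KO851, KO870, KO873 and KO876, and their lacZ controls C842 and C867. In these cultures 193 of 35091 copies rose (0.55%) and 0 fell upon Trim28-KO. A raised copy lay within 50 kb of 2 of the 40 genes raised in layer 6 (5.00%, Gm26573 and Tcfl5), of none of the 33 lowered genes and of 0.706% of the 9485 tested.

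Protein-coding genes were also among those that rose in layer 6 nuclei. Macc1, known as a transcriptional regulator in tumour metastasis, held 14 and 4 UMIs in Trim28-KO animals 60 and 73 and none in either control, so that it was at least 6.35-fold higher with 3 UMIs per library taken as the floor (adjusted p = 0.00681, edgeR). Tcfl5, a helix-loop-helix transcription factor of germ cells, held 13 and 4 UMIs against 1 and 1, a ratio of 20.5 with a counting interval of 4.86 to 183 (adjusted p = 0.0169, edgeR). Pcdha1, a clustered protocadherin, was counted at 20 and 7 UMIs against 0 and 2, a ratio of 32.5 with a counting interval of 8.17 to 282 (adjusted p = 0.00681, edgeR), with both control UMIs in animal 65. Pcdha1 shares its last exons with the other alpha protocadherins, all of which were listed at 0 in every layer 6 profile, so that its counts may stand for any of them. All 3 genes rested on few molecules, and Tcfl5 lost its call without Trim28-KO animal 73 (log2 fold change 4.30) or control animal 64 (3.89) or 65 (4.14), as did Macc1 without control animal 64 (adjusted p = 0.0583, edgeR) or 65 (adjusted p = 0.0613, edgeR). The carbonic anhydrase gene Car12 was at 20.2 and 17.1 CPM against 3.79 and 2.27 CPM (log2 fold change 2.58 ± 0.55, adjusted p = 0.0329, edgeR), but lost its call without any 1 of the 4 animals, with log2 fold changes of 2.30 to 2.98. With the Hs3st4 gate Car12 had a log2 fold change of 0.26 (adjusted p = 0.759, edgeR) and Macc1 one of 1.62 (adjusted p = 0.0865, edgeR), and neither was called. In each animal most nuclei of that gate lay outside the rule. Tcfl5 (4.52) and Pcdha1 (4.85) were still called with that gate.

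Other raised genes were better covered. Adgrd1, an adhesion G protein-coupled receptor, had 66.7 and 132 CPM in Trim28-KO animals 60 and 73 and 24.0 and 22.7 CPM in control animals 64 and 65, a log2 fold change of 2.00 ± 0.32 (adjusted p = 0.00681, edgeR). The clock gene Per2 had 52.4 and 48.9 CPM against 10.1 and 15.9 CPM (1.98 ± 0.35, adjusted p = 0.0107, edgeR). Stac2, an adaptor of voltage-gated calcium channels, had 143 and 90.4 CPM against 37.2 and 32.6 CPM (1.78 ± 0.26, adjusted p = 0.00362, edgeR). Stac2 was chosen after its values were seen. In all 3 genes the groups were separate. Without nuclei holding layer 6b transcripts Adgrd1 had a log2 fold change of 1.90 (adjusted p = 0.0529, edgeR) and Per2 one of 1.93 (adjusted p = 0.055, edgeR), and neither was called. The neurotrophin Bdnf also rose, from 6.31 and 6.06 to 20.2 and 39.1 CPM (2.13 ± 0.48, adjusted p = 0.0473, edgeR), and lost the call without Trim28-KO animal 73 (log2 fold change 1.69). With the Hs3st4 gate Bdnf had a log2 fold change of 0.73 and was not called (adjusted p = 0.412, edgeR). Gm42950 rose as well, with 34.5 and 22.0 CPM against 8.21 and 3.79 CPM (2.25 ± 0.47, adjusted p = 0.0305, edgeR), and lost its call without Trim28-KO animal 60 (1.82).

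Of the genes with the largest falls, 5 are described first that code for proteins of the cell surface. Cdh10, a classical cadherin, had 94.1 and 36.7 CPM in Trim28-KO animals 60 and 73 and 234 and 219 CPM in control animals 64 and 65, a log2 fold change of -1.67 ± 0.27 (adjusted p = 0.00681, edgeR). Sdk1, an immunoglobulin-family adhesion molecule, had 76.2 and 4.89 CPM against 294 and 132 CPM (-2.14 ± 0.47, adjusted p = 0.04, edgeR). The values of Sdk1 spread widely within both groups, yet without overlap, and its log2 fold change was -5.42 without Trim28-KO animal 60 and -1.41 without control animal 64. Its call was lost when doublets were removed (adjusted p = 0.0562, edgeR), and the fold change of Cdh10 was -2.63 without Trim28-KO animal 60. The semaphorin Sema5b had 25.01 and 31.8 CPM against 84.6 and 62.8 CPM (-1.43 ± 0.30, adjusted p = 0.0286, edgeR) and the netrin receptor Unc5c 56.0 and 46.4 CPM against 95.9 and 175 CPM (-1.36 ± 0.29, adjusted p = 0.0329, edgeR). Gsg1l, an auxiliary subunit of AMPA receptors, had 40.5 and 26.9 CPM against 96.6 and 111 CPM (-1.54 ± 0.26, adjusted p = 0.00873, edgeR). Sema5b lost its call without Trim28-KO animal 60 (log2 fold change -1.22), as did Unc5c without control animal 65 (-0.87). None of these 5 genes was still called after nuclei with layer 6b transcripts had been left out, where their adjusted p ran from 0.0552 to 0.257 (edgeR). Their log2 fold changes were then -1.24 for Cdh10, -1.96 for Sdk1, -1.17 for Sema5b, -1.11 for Unc5c and -1.43 for Gsg1l.

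**Figure D4:**
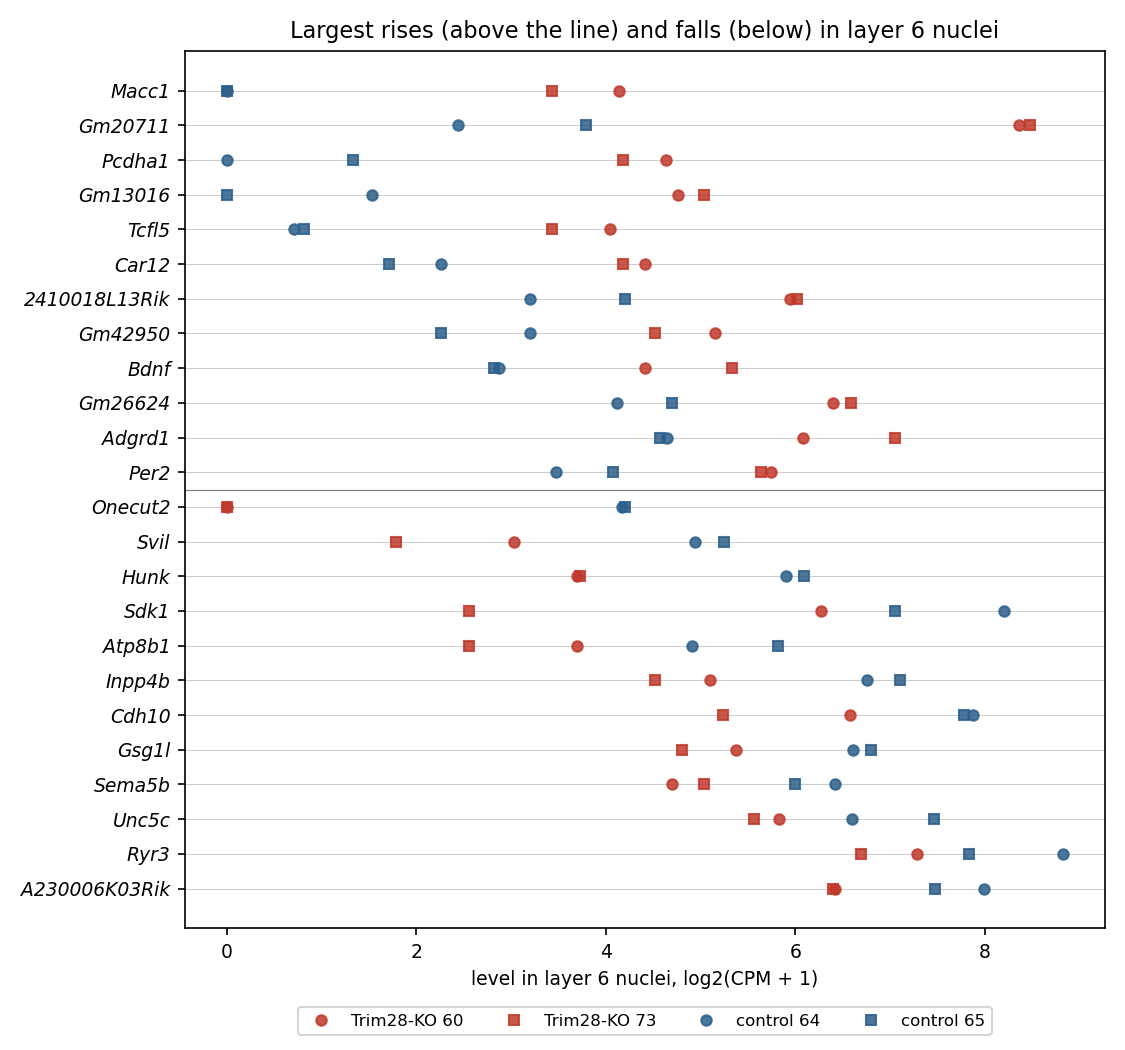
The level in layer 6 nuclei, as log2(CPM + 1) on the horizontal axis, of the 12 genes with the largest rises (above the line) and the 12 with the largest falls (below it); each point is 1 animal, red for Trim28-KO 60 and 73, blue for control 64 and 65. The 24 genes were chosen among those that passed the test and whose groups did not overlap, so that separate red and blue points were a condition of the choice.

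Regulators and enzymes also fell. Hunk, a serine-threonine kinase, had 11.9 and 12.2 CPM in Trim28-KO animals 60 and 73 against 58.7 and 67.4 CPM in control animals 64 and 65 (log2 fold change -2.38 ± 0.35, adjusted p = 0.00362, edgeR). The 2 animals of each group lay close together, and the call held when nuclei with layer 6b transcripts were left out (-2.45). The homeobox gene Onecut2 held no UMI in either Trim28-KO animal and 27 and 23 UMIs in the controls, so that it was at least 3.16-fold lower with 3 UMIs per library as the floor (adjusted p = 0.0107, edgeR). Ryr3, an intracellular calcium release channel, had 155 and 103 CPM against 452 and 226 CPM (-1.36 ± 0.28, adjusted p = 0.0242, edgeR), with a log2 fold change of -0.77 without control animal 64. The phospholipid flippase gene Atp8b1 had 11.9 and 4.89 CPM against 29.0 and 55.3 CPM (-2.12 ± 0.48, adjusted p = 0.0473, edgeR) and lost its call without control animal 65 (-1.59). The noncoding A230006K03Rik fell by 1.35 on the log2 scale, from 252 and 176 to 84.5 and 83.1 CPM (adjusted p = 0.00816, edgeR).

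A pair of the genes that fell are known from layer 6b, the thin band of neurons beneath layer 6. Inpp4b, a phosphoinositide phosphatase, had 33.3 and 22.0 CPM in Trim28-KO animals 60 and 73 and 107 and 136 CPM in control animals 64 and 65 (log2 fold change -2.05 ± 0.28, adjusted p = 0.003, edgeR), and Svil, an actin-binding protein, had 7.14 and 2.44 CPM against 29.7 and 37.1 CPM (-2.56 ± 0.50, adjusted p = 0.0187, edgeR). Both belong to a list of 11 layer 6b genes, of which 6 were tested, 2 fell, none rose, and the median log2 fold change was -1.26, where 0.347% of all genes tested fell. In the other excitatory nuclei 5 of 8 tested genes of the list fell at a median of -1.86, where 4.25% of all genes fell. The list summed to 91.7 and 48.9 CPM against 193 and 248 CPM, with Inpp4b its most abundant member and none of its genes at 0 in all 4 animals. The nuclei with at least 3 UMIs of layer 6b genes were 1 and 0 in Trim28-KO and 7 and 6 in control animals. Without them Inpp4b had a log2 fold change of -0.85 (adjusted p = 0.591, edgeR), Svil was no longer abundant enough to be tested, and Cdh10 had one of -1.24 (adjusted p = 0.161, edgeR). Since these nuclei were picked by layer 6b transcripts and came mostly from controls, a smaller fall of layer 6b genes was built into this step.

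Markers of other cell types were counted in the same way, where 0.421% of all genes tested rose and 0.347% fell. The 10 interneuron genes, which would mark inhibitory cells caught in the gate, summed to 219 and 120 CPM in Trim28-KO animals 60 and 73 and to 107 and 146 CPM in control animals 64 and 65, with Adarb2 the most abundant, Lhx6 at 0 in every animal and none of the 4 tested called. Of 9 oligodendrocyte genes 2 were tested, at a median log2 fold change of 0.61. Of these Mbp, the myelin basic protein gene, rose with 48.8 and 78.2 CPM against 16.4 and 22.0 CPM (log2 fold change 1.67 ± 0.33, adjusted p = 0.0216, edgeR), and the other was not called. The list summed to 112 and 110 CPM against 82.7 and 71.2 CPM, with Mbp the most abundant and a large part of the sum in Trim28-KO. In the other excitatory nuclei 8 of the 9 genes were tested, 1 rose and 1 fell, at a median of -0.94, where 4.8% and 4.25% of all genes did so. The call of Mbp was lost without Trim28-KO animal 73 (1.35). Of 8 striatal genes Pde10a, a cyclic nucleotide phosphodiesterase that cortical neurons also express, rose with 1259 and 2009 CPM against 830 and 856 CPM (0.95 ± 0.18, adjusted p = 0.0187, edgeR), and lost its call without Trim28-KO animal 73 (0.58). The sums of the other lists lay at 984 and 787 against 836 and 1040 CPM for 10 astrocyte genes, with Slc1a2 the most abundant, at 53.6 and 152 against 110 and 71.9 CPM for 9 microglial genes, and at 7.14 and 9.78 against 17.0 and 12.9 CPM for 9 vascular genes, of which Dcn was at 0 throughout. Of these 3 lists 4 astrocyte, 4 microglial and 0 vascular genes were abundant enough to be tested, and none of those was called. Of the genes of other excitatory classes, Sulf1, a sulfatase listed for the intratelencephalic neurons of layer 6, fell with 77.4 and 53.8 CPM against 182 and 133 CPM (-1.22 ± 0.24, adjusted p = 0.0229, edgeR), and lost its call without Trim28-KO animal 73 (-1.03). Of 4 middle-layer genes tested Cdh9, a cadherin, fell (-1.18), and none of 4 near-projecting, 6 upper-layer and 4 thick-tufted layer 5 genes tested was called. The part of other cells in the results was not tested.

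Few receptor and channel genes passed the test, beside 0.347% of all genes tested that fell. Of 14 ionotropic glutamate receptor genes tested none was called, with a median log2 fold change of -0.10 beside -0.004 over all genes. Of 6 metabotropic receptors Grm8, a presynaptic group III receptor, fell with 662 and 582 CPM in Trim28-KO animals 60 and 73 against 1126 and 1009.9 CPM in control animals 64 and 65 (log2 fold change -0.78 ± 0.15, adjusted p = 0.0209, edgeR), and the median was -0.38. None of 13 GABA receptor genes was called at a median of -0.22, and none of 23 sodium and calcium channel genes at a median of -0.17. Of 49 potassium channel genes tested, Kcnab1, a cytoplasmic beta subunit, fell with 51.2 and 56.2 CPM against 98.5 and 142 CPM (-1.17 ± 0.25, adjusted p = 0.0374, edgeR). Without nuclei carrying layer 6b transcripts Kcnab1 had a log2 fold change of -0.23. It also lost its call without Trim28-KO animal 60 (-1.09), and Grm8 did so without animal 73 (-0.69).

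Adhesion genes were described in the same way. Among 22 non-clustered cadherins tested, Cdh10 and Cdh9 fell and none rose, where 0.347% of all genes tested fell and 0.421% rose, with a median log2 fold change of -0.21. Cdh9 had 148 and 80.7 CPM in Trim28-KO animals 60 and 73 against 256 and 285 CPM in control animals 64 and 65 (-1.18 ± 0.23, adjusted p = 0.0187, edgeR), and lost its call without Trim28-KO animal 73 (-0.88). Of 57 synaptic adhesion genes tested 2 fell, Sdk1 and Ncam2, and none rose, the median being -0.23, and Ncam2 lost its call without Trim28-KO animal 73 (-0.55). In 25 of these 57 genes both Trim28-KO animals lay below both controls and in 2 above, where 22.1% and 21.6% of all genes did so. Of 34 axon guidance genes tested Sema5b and Unc5c fell and none rose, at a median of -0.17. Of the 58 clustered protocadherins 57 were at 0 in all 4 layer 6 profiles and Pcdha1 alone was tested, whereas in bulk cortex, where the family could be counted, 20 of 55 rose and 2 fell, beside 0.873% and 0.498% of all genes tested there.

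The lists of Zfp, heterochromatin, imprinted and interferon-stimulated genes gave no calls in layer 6, where 0.769% of all genes tested were called. None of the 206 tested genes named Zfp, most of them zinc-finger genes, was called, at a median log2 fold change of 0.06. Zinc-finger genes with other names were not in this list. In the other excitatory nuclei 12 of 326 Zfp genes rose and 4 fell, where 4.8% and 4.25% of all genes did so. In bulk cortex 6 of 340 rose and 0 fell, beside 0.873% and 0.498% of all genes. The next 2 lists were again taken in layer 6. None of 31 heterochromatin and DNA methylation factors was called (median -0.20), nor was any of 32 imprinted genes (median 0.09). Of 38 interferon-stimulated genes, which respond to viral nucleic acids, 4 were abundant enough to be tested, none was called and 16 were at 0 in every layer 6 profile. A pair of genes that rose in the other excitatory nuclei, She and Draxin, were at the limit of detection in layer 6. She held 8 and 0 UMIs in Trim28-KO animals 60 and 73 and none in the controls, and Draxin, a secreted axon guidance molecule, held 3 and 1 against none, so that both fell below the filter. In the other excitatory nuclei She was at 15.1 and 10.1 CPM against 0.08 and 0 CPM (log2 fold change 8.03, adjusted p = 0.000374, edgeR).

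Mitochondrial, ribosomal and activity-induced genes had medians above that of all genes. Of 11 tested genes of the mitochondrial genome mt-Co3, mt-Cytb and mt-Co1 rose, the median log2 fold change was 1.30, and all 11 had both Trim28-KO animals above both controls, where 0.421% of all genes tested rose and 21.6% had the Trim28-KO animals above. Without control animal 64 the log2 fold changes were 0.95 for mt-Co3, 0.80 for mt-Cytb and 0.82 for mt-Co1. Without control animal 65 they were 2.13 for mt-Co3, 2.25 for mt-Cytb and 1.97 for mt-Co1. The list summed to 1635 and 2009 CPM in Trim28-KO animals 60 and 73 against 455 and 1052 CPM in control animals 64 and 65. Of 60 ribosomal protein genes none was called, at a median of 0.57, while 29 had both Trim28-KO animals above both controls and 0 below, where 21.6% and 22.1% of all genes did so. They summed to 1719.5 and 1429.9 CPM against 1169.7 and 1033 CPM. Of 20 activity-induced genes Bdnf alone was called, at a median of 0.75, and they summed to 1606 and 1599 CPM against 386 and 1217 CPM, so that control animal 64 stood apart from the other 3. Homer1, the most abundant of them, had 810, 660, 127 and 493 CPM in animals 60, 73, 64 and 65. All 5 tested stress and RNA quality genes had both Trim28-KO animals above both controls, at a median of 0.44. The most abundant of them, the nuclear RNA Malat1, had 125774 and 124581 CPM against 114836 and 85303 CPM. Of the 5 genes Ddit3 rose, a transcription factor of the unfolded protein response, with 44.1 and 58.7 CPM against 9.47 and 17.4 CPM (1.91 ± 0.37, adjusted p = 0.0187, edgeR). In the other excitatory nuclei the mitochondrial, ribosomal, activity-induced and stress lists had medians of 0.63, 0.54, 0.84 and 0.46, beside 0.007 over all genes. There 0 of 13, 23 of 77, 2 of 28 and 3 of 8 tested genes were called higher, where 4.8% of all genes were. The shift was thus not particular to layer 6. The part of nuclear quality or of activity in the other results was not tested.

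Hecw2 and Sgcz, which the study names for excitatory neurons, were also followed in layer 6. Hecw2, a ubiquitin ligase, had 566 and 633 CPM in Trim28-KO animals 60 and 73 against 943 and 1043 CPM in control animals 64 and 65, and fell (log2 fold change -0.73 ± 0.15, adjusted p = 0.0304, edgeR). Sgcz, a sarcoglycan, had 1185 and 934 CPM against 1730.2 and 1613 CPM, with both Trim28-KO values below both controls (-0.65 ± 0.15, adjusted p = 0.0513, edgeR), and missed the threshold. Hecw2 had a fold change of -0.86 and Sgcz one of -0.74 in the other excitatory nuclei, and the difference between the classes was not significant for either gene (adjusted p = 0.967 and 0.99, edgeR). Hecw2 lost its call without Trim28-KO animal 60 (-0.66).

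Whether the effect of Trim28-KO differed between layer 6 and the other excitatory nuclei of the same animals was tested directly, with the animal as a block. The other excitatory nuclei mix several classes. Rorb-high nuclei, 1 of these, were 22.0% and 25.1% of the excitatory nuclei in Trim28-KO against 28.3% and 29.9% in control animals. The part of this mix in the differences was not tested. The difference was not fitted without the nuclei holding layer 6b transcripts. The difference passed for 64 of 14435 genes (0.443%), with the layer 6 effect higher for 36 (0.249%) and lower for 28 (0.194%). For most of the largest changes in layer 6 it did not pass. Gm20711 had a log2 fold change of 4.97 in the other excitatory nuclei beside 5.33 in layer 6 (adjusted p of the difference 0.939, edgeR), and Hunk had one of -2.66 beside -2.38 (adjusted p = 0.98, edgeR). Rxfp1, the relaxin receptor gene, was among the genes that differed and had 0.67 in layer 6 and -1.53 elsewhere (difference 2.11, adjusted p = 1.39e-10, edgeR). Cdh10 fell in layer 6 and had a log2 fold change of -0.21 in the other excitatory nuclei (difference -1.51, adjusted p = 3.98e-10, edgeR, and -2.39 without Trim28-KO animal 60), and Dpyd, an enzyme of pyrimidine breakdown, had -1.89 in layer 6 and 0.01 elsewhere (difference -1.95, adjusted p = 0.00333, edgeR). Dpyd lost this call without Trim28-KO animal 60 (-2.68) or 73 (-1.70). With DESeq2 the layer 6 effect was higher for 2 genes and lower for 1, without control animal 64 for 21 and 13, and without Trim28-KO animal 60 for 60 and 47.

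**Figure D5:**
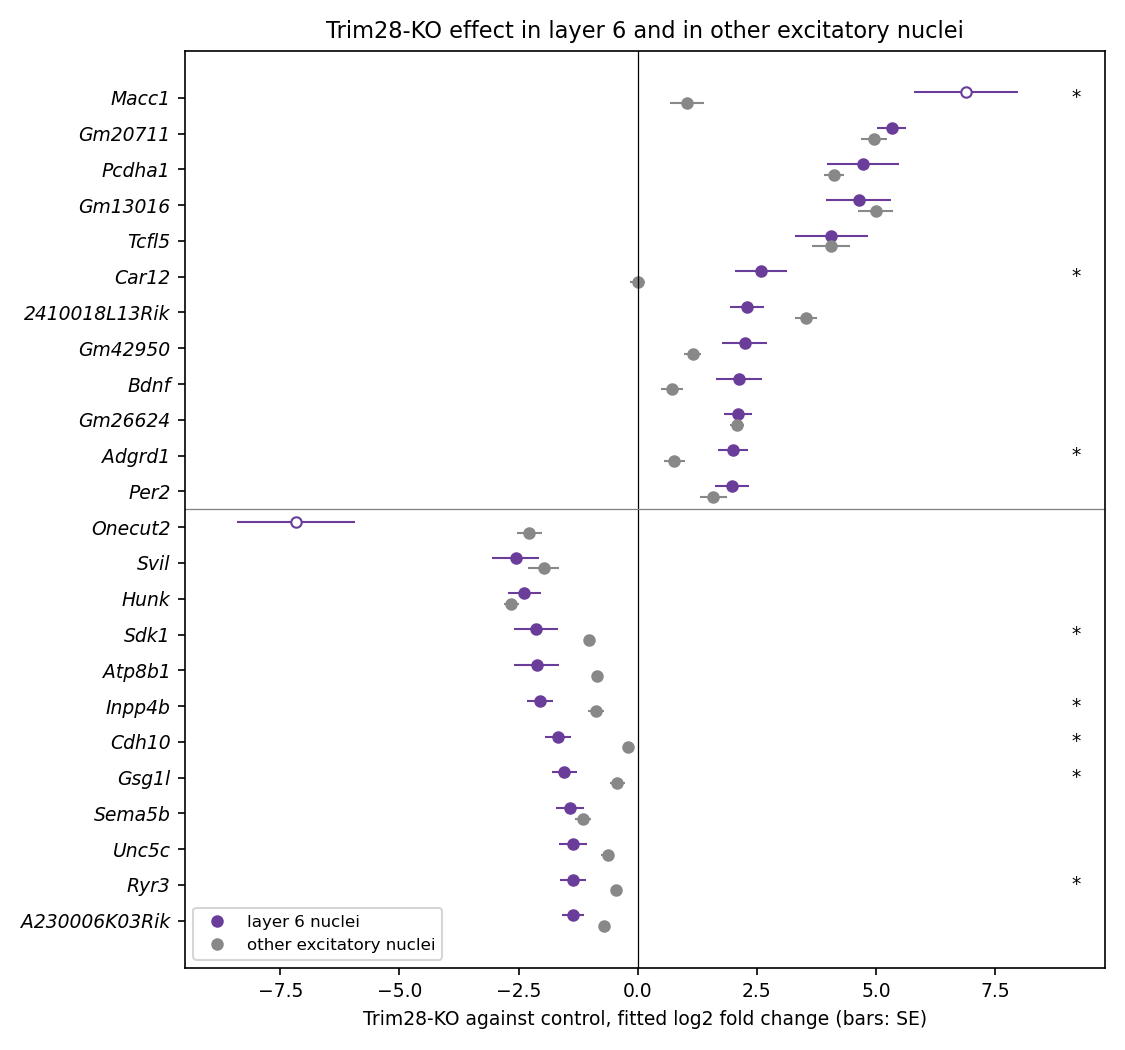
The fitted log2 fold change of Trim28-KO against control in layer 6 nuclei (purple) and in other excitatory nuclei (grey) for the 12 largest rises and 12 largest falls in layer 6, with bars for the SE; open circles mark genes without a UMI in 1 of the groups, whose fitted value is no bound, and asterisks a significant difference between the classes. The 2 classes lie close for Gm20711 at 5.33 and 4.97 and apart for Cdh10 at -1.67 and -0.21.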

How the data were processed

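Nuclei were sorted from cortex and profiled on the 10x Chromium 3′ platform. Per the labels and the study's methods, Cell Ranger 3.0 made the deposited UMI counts per gene with a pre-mRNA reference of mm10, and the bulk gene counts and transposable-element counts deposited by the authors came from featureCounts after STAR mapping to GRCm38.p6 with GENCODE annotation. The layer 6 rule, the gene lists and the genes named were chosen with earlier results of these data known. No filter on nuclei was applied beyond the rule, and doublets called by Scrublet (0.421 to 1.92% of nuclei per library, 6 of them in layer 6) were removed only as an alternative. UMIs were summed per animal and class, since animals and not nuclei are the replicates, and tested with edgeR 4.0.16 (R 4.3.3; filterByExpr, TMM, quasi-likelihood F test, Benjamini-Hochberg adjustment over all genes tested, called at an adjusted p of 0.05). The difference between classes was an interaction term with animal as block. The scripts were tested on simulated data. DESeq2 1.42.0, other size factors, other gates, no filter and leaving out each animal were alternatives. Named were the 12 largest called changes in each direction whose groups did not overlap, the 5 largest differences between classes in each direction, fixed markers, and up to 4 members per gene list. Gene identifiers of 27744 of 27998 features matched the bulk annotation. The bulk libraries held 16748967 to 25345083 gene counts. Among the deposited columns, 6 matched no sample and were not used here. Fold changes computed by the authors were not used. Intervals on shares are exact binomial (Python 3.11.15, scipy 1.17.1) and cover counting error only. A few called or overlapping genes are not reported here.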

Additional observations from a re-analysis of the deposited data

Results flagged for a closer look

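The effect of Trim28-KO on the genes named in the report or called in layer 6 differed between layer 6 and the other excitatory nuclei of the same animals for the 28 genes given here, by edgeR's interaction term with the animal as a block and an adjusted p of 0.05. All values are the log2 fold change in layer 6 minus that in the other excitatory nuclei. These differences were not fitted without the nuclei holding layer 6b transcripts. In that setting the log2 fold change of Cdh10 within layer 6 alone was -1.24 and was not called (adjusted p = 0.161, edgeR).

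The layer 6 effect was higher for Macc1 by 8.77 (a fitted value that depends on the prior count, as both control layer 6 profiles held no UMI), Adam2 by 4.30, Unc13c by 3.41, Ctgf by 3.01, Car12 by 2.598, Rxfp1 by 2.11, Adarb2 by 1.37, Adgrd1 by 1.10, Stac2 by 1.03, Tshz2 by 1.01, mt-Co1 by 0.74, mt-Co3 by 0.72 and Hs3st4 by 0.69. Unc13c, a synaptic vesicle priming gene, held 23 UMIs in the layer 6 nuclei of Trim28-KO animal 60 and 1, 6 and 4 in animals 73, 64 and 65, and Adam2 held 12, 2, 1 and 0. Without Trim28-KO animal 60 the differences were 0.49 for Unc13c and 2.88 for Adam2 and were no longer called, and that of Adam2 was not called without control animal 64 (8.60, against a control without a UMI in layer 6) or 65 (3.68) either. The difference of Macc1 lost its call without Trim28-KO animal 60 (adjusted p = 0.0868, edgeR) or control animal 64 (adjusted p = 0.721, edgeR). That of Tshz2 turned to -2.10 (adjusted p = 0.00212, edgeR) with a rule sum of at least 10 UMIs, at which it was called in the opposite direction. That of Adarb2 turned to -0.61 without Trim28-KO animal 60, and those of mt-Co1 and mt-Co3 came to 0.14 and 0.12 without Trim28-KO animal 73. Ctgf, a layer 6b gene, held 17, 0, 45 and 26 UMIs in layer 6 in the same order, and its difference came to -5.77 without Trim28-KO animal 60.

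The layer 6 effect was lower for Rmst (-2.64), Anxa11 (-2.27), Dpyd (-1.95), Stox1 (-1.91), Zfp608 (-1.56), Cdh10 (-1.51), Inpp4b (-1.22), Gsg1l (-1.19), Sdk1 (-1.03), Lhfp (-0.99), Ryr3 (-0.92), Osbpl10 (-0.84), Lrp1b (-0.68), Nkain2 (-0.50) and Pde1a (-0.49). Rmst, a long noncoding RNA, held 69 UMIs in control animal 64 and 5, 1 and 2 in animals 60, 73 and 65, and its difference turned to 1.06 without control animal 64. Stox1 had 13.1 and 17.1 CPM in Trim28-KO animals 60 and 73 against 41.0 and 27.3 CPM in control animals 64 and 65 in layer 6, and a log2 fold change of 0.65 in the other excitatory nuclei. Its call was lost without Trim28-KO animal 60 (-1.78) or control animal 64 (-1.67). The difference of Sdk1 was -4.49 without Trim28-KO animal 60, -0.35 without animal 73 and -0.46 without control animal 64, and that of Ryr3 was -0.40 without control animal 64.

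Of the 28 genes, 26 lost this call when at least 1 of the 4 animals was left out. Rxfp1 and Cdh10 kept it in each of these fits, and they were the 2 of the 28 that DESeq2 called.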

How the results depend on the processing

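The 73 calls in layer 6 kept their direction wherever the gene could be tested, except for 1 of them under the Hs3st4 gate, while the number past the threshold varied. Genes called higher and lower (40 and 33) numbered 14 and 15 with DESeq2, 134 and 141 without a filter on low counts, 77 and 62 with a rule sum of at least 4, 10 and 2 with at least 10, 6 and 2 without nuclei holding layer 6b transcripts, 166 and 207 with the Hs3st4 gate, and 69 to 153 and 36 to 122 with 1 animal left out. With RLE size factors, total counts, a 3 MAD limit, doublets removed, shared barcodes removed or edgeR's newer quasi-likelihood method (the last 2 chosen after seeing the data), the counts stayed within 1.5 times. Differences between classes (36 higher, 28 lower) numbered 2 and 1 with DESeq2, 45 lower without a filter, and 21 to 60 and 13 to 47 with 1 animal left out. The layer 6 share, 8.37 percentage points higher in controls, was 6.29 points higher with a sum of at least 10, 10.8 with the Hs3st4 gate and 7.06 to 9.69 with 1 animal left out. It was 1.81 points higher when nuclei were thinned to 2000 UMIs with a sum of at least 3, where the groups overlapped (exact permutation p = 0.667). Thinned to 5000 UMIs with a sum of at least 3, chosen after seeing the data, it was 7.47. Log2 fold changes that turned were those of Syt6 (0.67, -0.29 with the Hs3st4 gate), Cpa6 (-0.52, -0.95 to 0.12 with 1 animal left out, positive without control 64), Rorb (-0.18, -1.39 to 0.23 with 1 animal left out, positive without Trim28-KO 73, 0.10 with a sum of at least 10, 0.49 with the Hs3st4 gate), and the differences of Tshz2 (1.01, -2.10 with a sum of at least 10, called in that direction), Adarb2 (1.37, -0.61 without Trim28-KO 60, -1.11 with a sum of at least 10), Ctgf (3.01, -5.77 to 3.44 with 1 animal left out, negative without Trim28-KO 60, -6.48 with a sum of at least 10) and Rmst (-2.64, -3.45 to 1.06 with 1 animal left out, positive without control 64). The rule counted the UMIs of Syt6, Cpa6 and Rorb, so that their values within its nuclei are a description only. The cause of the turned values was not tested. No paired analysis was possible because the Trim28-KO and control animals carry different numbers. With 1 animal left in a group, that animal is assumed to vary like the others. Depth limits the result for genes under 7.33 CPM, the level of 3 UMIs in Trim28-KO 73, and nothing in the labels names a batch.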
